A study of Mus musculus with 6 samples.

Results

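The AP-1 factors were examined in sorted mouse thymocytes as the 10 genes Fos, Fosb, Fosl1, Fosl2, Jun, Junb, Jund, Atf3, Batf and Batf3, picked by symbol out of 26332 genes in the count table. Libraries from 2 C57BL/6 mice in which Tcf7 was knocked out (KO) were set against libraries from 4 wild-type C57BL/6 mice (WT), each from an individual mouse. Tcf7 encodes TCF-1, a DNA-binding factor of the WNT pathway that T cell development relies on. KO 1 and WT 4 were male, and KO 2 and WT 1, 2 and 3 were female. The sources used here give no ages, no knockout allele and no word on a Cre, so which cells of the mouse lack Tcf7 is not known. All 6 libraries came from double negative 3 (DN3) thymocytes, sorted as CD25 positive and as negative for CD44, CD3, TCRβ, CD8, NK1.1 and the CD1d tetramer.

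AP-1 is a dimer of 2 basic leucine zipper proteins that grips DNA as a pair. JUN proteins pair with themselves or with FOS proteins, whereas FOS proteins need a JUN partner. BATF and BATF3 lack the activation domains of FOS, take its place beside JUN proteins, and bind with IRF4 in T cells; ATF3 is a stress-induced member that can repress. Fos, Fosb, Jun and Junb are immediate-early genes, switched on within minutes when MAP kinases act through serum response factor, its ternary complex partners and CREB. In T cells AP-1 works beside NFAT downstream of receptor signals, and in the thymus pre-T-cell receptor signals pass through the same kinases.

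The DNA just upstream of 3 of these genes is shown because Fos and Jun are the founding FOS and JUN genes and both fell, and Batf was the single rise of the family. Each line holds the 250 bases before the start of transcription, read 5′ to 3′ on the strand of the gene, from RefSeq on GRCm38.p6. Capitals mark a TATA box (TATAAA), the TGACG core of a cyclic AMP response element or the 8-base element with any base in the middle (TGACNTCA).
Fos (chr12:85473640-85473889, plus strand): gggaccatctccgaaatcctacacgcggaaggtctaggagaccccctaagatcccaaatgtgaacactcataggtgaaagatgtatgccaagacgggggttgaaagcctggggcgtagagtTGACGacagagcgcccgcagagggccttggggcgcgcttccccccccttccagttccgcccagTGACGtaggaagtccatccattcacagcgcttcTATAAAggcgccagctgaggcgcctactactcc
Jun (chr4:95052223-95052472, minus strand): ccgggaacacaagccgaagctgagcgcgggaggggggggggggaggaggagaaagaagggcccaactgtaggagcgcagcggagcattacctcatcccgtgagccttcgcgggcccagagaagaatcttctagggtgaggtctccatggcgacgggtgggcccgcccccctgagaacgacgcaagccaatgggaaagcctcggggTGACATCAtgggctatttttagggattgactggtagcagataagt
Batf (chr12:85686470-85686719, plus strand): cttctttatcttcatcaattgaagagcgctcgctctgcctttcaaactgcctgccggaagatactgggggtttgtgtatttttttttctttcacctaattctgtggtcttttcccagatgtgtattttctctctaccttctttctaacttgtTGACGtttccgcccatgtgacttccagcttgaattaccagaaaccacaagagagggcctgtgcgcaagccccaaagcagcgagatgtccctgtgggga

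A promoter window was on hand for 9 of the 10 members. That of Fosb was taken from an inner start and lies partly within the gene's outer coordinates; it is not shown. TGACG, searched on both strands, lay in 5 of these 9 windows (Fos, Fosb, Junb, Atf3 and Batf), against 17.8% of 32851 windows of the same length across the genome. The Fos window held it at 129 and at 66 bases before the start, and a TATAAA from 33 to 28 bases before it; TATAAA was in 12.4% of all windows. The Jun window held TGACATCA from 45 to 38 bases before the start, a match to TGACNTCA, which was in 7.49% of all windows. None of the 9 windows held the AP-1 site TGANTCA (6.75% of all windows), a serum response element (1.47%) or the TCF/LEF core CTTTGA (13.8%). A TGACG can lie inside a TGACNTCA, which was not the case in these windows. These are matches of letters only, and windows of 250 bases leave out more distant elements.

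Library depth was 19589938 and 13673860 counts in KO 1 and KO 2, against 23711513 to 41666797 counts in WT. Levels are given as CPM, counts scaled to the size of the library with TMM factors. Tcf7 itself was at 1133 CPM in KO 1 and 1022 CPM in KO 2, against 2094 to 2326 CPM in WT, so transcripts of the targeted gene remained in both KO libraries. The 10 DN3 marker genes summed to 8641 and 8708 CPM in KO 1 and KO 2, against 9972 to 10681 CPM in WT. By edgeR 5 of the 10 were called lower in KO, 1 (Dtx1) higher and 4 were not called. Over all genes tested, 16.5% were called lower and 14.1% higher. The sum hides gaps between the 2 KO libraries. Rag1 was at 521 CPM in KO 1 and 1953 CPM in KO 2, against 1476 to 1925 CPM in WT. Rag2 was at 32.6 CPM in KO 1 and 114 CPM in KO 2, against 90.8 to 103 CPM in WT. The 10 B-cell markers summed to 23.3 CPM in KO 1, 205.8 CPM in KO 2 and 45.2 to 52.7 CPM in WT; Ms4a1 and Pax5 had 483 and 101 counts in KO 2 and none in the other 5 libraries. The 8 innate lymphoid and NK markers summed to 1588 and 1589 CPM in KO 1 and KO 2, against 319 to 383 CPM in WT; Gzma made up most of it. Gzma rose 6.26-fold and Gata3, which T cells also express, 1.55-fold, while Klrd1 had 27 counts in KO 2, none in KO 1 and 0 to 6 in WT. Klrk1 and Il1rl1 had 6 and 4 counts in KO 2 and none in KO 1, against 0 to 5 and none in WT, and Ncr1, Klrb1c and Eomes had at most 5 counts in any library. Mitochondrial transcripts took 0.893% and 1.78% of the counts in KO 1 and KO 2, against 2.61 to 2.92% in WT. A gene was called at an adjusted p under 0.05. In bulk RNA, fewer cells with a transcript and less of it per cell cannot be told apart.

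Of the 10 AP-1 factors, 5 fell in KO cells (Fos, Fosb, Fosl2, Jun and Junb), 1 rose (Batf), Jund did not pass the test, and Fosl1, Atf3 and Batf3 had too few counts for one. Among all 13294 genes tested, 16.5% were called lower and 14.1% higher in KO by edgeR's quasi-likelihood test, 30.7% in all. The 5 falls were each at least 4-fold, as were called falls in 5.24% of all genes tested. Fosb, with 1 count in each KO library, passed the filter on low counts through its WT libraries alone. Fosl2, with 1 count in KO 1, also needed its WT libraries to pass. The 7 members tested are therefore not the whole family, and low KO levels of these 2 genes were let in by WT. In 6 of the 7 members tested both KO libraries lay below all 4 WT libraries, as they did in 28.6% of all genes tested. The exception was Batf, where both lay above, as in 22.9% of all genes tested. The 2 KO libraries often differed from each other several-fold, and not in the same order for each gene.

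**Figure D1:**
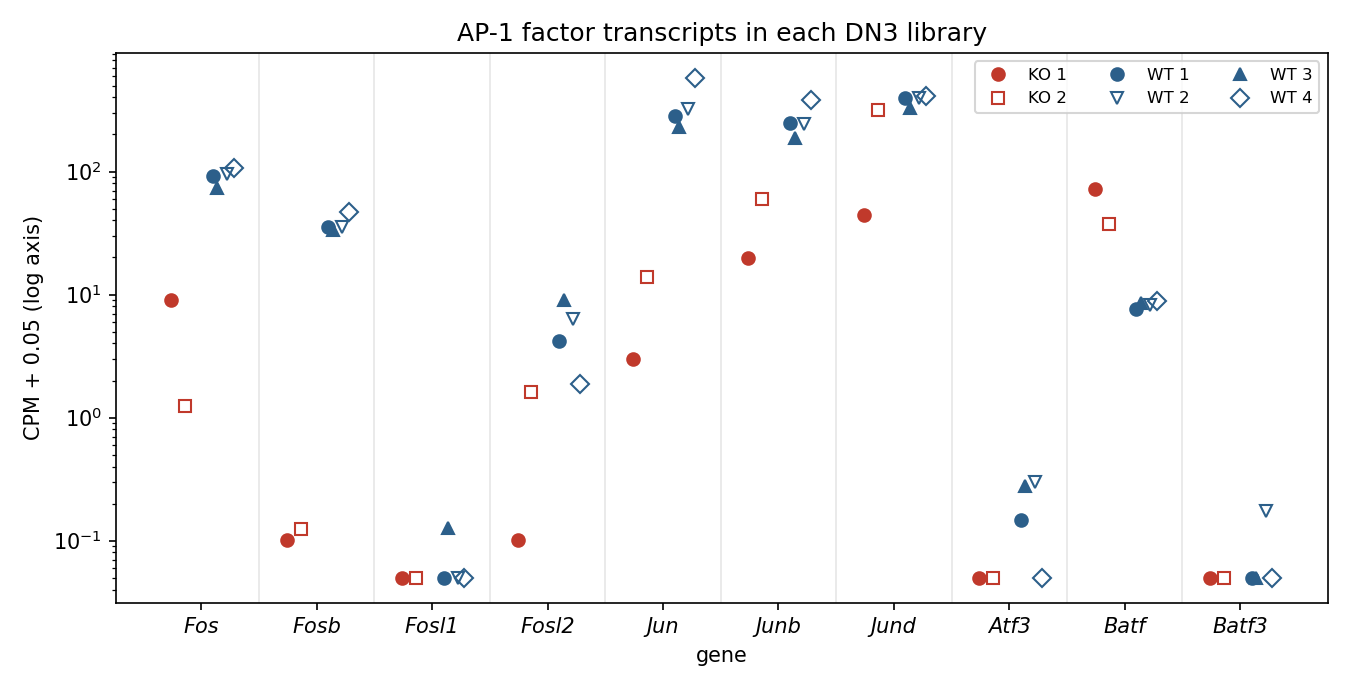
Level of each AP-1 factor in each library, as CPM plus 0.05 on a log axis, with KO libraries in red on the left of each gene's strip and WT libraries in blue on the right. Both KO libraries sit below the WT libraries for Fos, Fosb, Fosl2, Jun, Junb and Jund and above them for Batf, and the points at 0.05 had no count.

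Among the FOS proteins, Fos (Entrez 14281, chromosome 12, 85473890 to 85477274), the founding member and a classic immediate-early gene, stood at 8.96 CPM in KO 1 and 1.19 CPM in KO 2. In WT 1 to 4 it was at 92.5, 95.3, 73.1 and 106 CPM. The groups did not overlap, and KO 1 was 10.3-fold and KO 2 76.9-fold below the WT mean of 91.8 CPM ± 13.8 (SD, n = 4). The log2 fold change was -4.56 (SE 0.585), with an adjusted p of 0.00515 by edgeR's quasi-likelihood test.

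Fosb (Entrez 14282, chromosome 7, 19302696 to 19310118), which encodes a close relative of FOS, had 1 count in KO 1 and 1 in KO 2. Its WT counts were 1454, 845, 873 and 1320, which is 35.1, 35.3, 33.5 and 46.4 CPM. The WT mean was 37.6 CPM ± 5.94 (SD, n = 4), and both KO libraries were below 0.1 CPM. Pooled over libraries the KO level was 617-fold lower, with an exact 95% interval for counting error of 171 to 5097. It was the largest fall in the family, and edgeR's quasi-likelihood test gave an adjusted p of 4.97e-05.

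Fosl2 (Entrez 14284, chromosome 5, 32136472 to 32157840) encodes FRA-2, a FOS relative that is usually induced later than FOS. It had 1 count in KO 1 and 21 in KO 2, or 0.0512 and 1.57 CPM, against 4.13, 6.23, 9.05 and 1.83 CPM in WT 1 to 4. WT itself varied 4.95-fold, and WT 4 was only slightly above KO 2. Its log2 fold change was -2.64 (SE 0.683), which edgeR's quasi-likelihood test called at an adjusted p of 0.0390. The call was lost when any 1 of the 6 libraries was left out (adjusted p = 0.0698 to 0.115). Fosl1, which encodes FRA-1, was at 0 in both KO libraries and had 2 counts in WT, both in WT 3. Its locus overlaps that of Ccdc85b, the only annotated gene that overlaps a member, and reads of the pair cannot be told apart by strand with this kit.

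Among the JUN proteins, Jun (Entrez 16476, chromosome 4, 95049036 to 95052222), the main transactivating partner of FOS, was at 2.92 CPM in KO 1 and 14.0 CPM in KO 2. In WT 1 to 4 it was at 285, 322, 229.8 and 576 CPM. KO 1 was thus 121-fold and KO 2 25.3-fold below the WT mean of 353 CPM ± 153 (SD, n = 4), with no overlap. WT 4, the male WT mouse, had the highest level. The log2 fold change of Jun was -5.43 (SE 0.842), with an adjusted p of 0.00920 by edgeR's quasi-likelihood test.

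Junb (Entrez 16477, chromosome 8, 84976909 to 84978748), which can restrain JUN and also serves as the partner of BATF, was at 19.8 CPM in KO 1 and 59.3 CPM in KO 2. Its WT levels were 247, 244, 188 and 381 CPM. The groups did not overlap, and WT 4 was again the highest. Its log2 fold change was -2.76 (SE 0.572; edgeR adjusted p = 0.0209), and the call was lost without WT 1, WT 2 or WT 3 (adjusted p = 0.0704, 0.0664 and 0.0513).

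Jund (Entrez 16478, chromosome 8, 70697739 to 70700616), the most constantly expressed JUN gene in most cells and not an immediate-early gene, was at 44.0 CPM in KO 1 and 318 CPM in KO 2. It was at 398, 398, 325 and 412 CPM in WT 1 to 4. Both KO libraries lay below WT, but KO 2 by 1.20-fold and KO 1 by 8.71-fold relative to the WT mean of 384 CPM ± 39.2 (SD, n = 4). The log2 difference of -1.22 (SE 0.667) did not pass (adjusted p = 0.219 by edgeR's quasi-likelihood test). Without KO 2 it was -3.24 and passed (edgeR adjusted p = 0.00735), and without KO 1 it was -0.22 (adjusted p = 0.430). With sex in the model these are the difference of KO 1 from WT 4 and that of KO 2 from the WT females.

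Batf (Entrez 53314, chromosome 12, 85686720 to 85709087), the BATF partner of JUN proteins in effector and type 17 T cells, was at 71.6 CPM in KO 1 and 37.3 CPM in KO 2. Its WT levels were tightly grouped at 7.58, 8.15, 8.43 and 8.82 CPM. KO 1 was 8.69-fold and KO 2 4.53-fold above the WT mean of 8.25 CPM ± 0.521 (SD, n = 4). Batf rose 5.84-fold, a log2 fold change of 2.55 (SE 0.199), with an adjusted p of 0.00120 by edgeR's quasi-likelihood test. The KO library with fewer B-cell transcripts had the higher Batf level: in KO 1, Ms4a1, Pax5 and Ebf1 had no count. The innate lymphoid and NK sum was higher in both KO libraries, and its part in the rise of Batf was not tested.

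The remaining members were close to silent in all 6 libraries. Batf3, which is known for dendritic cell development, had no KO count and 3 counts, all in WT 2. Atf3 had no KO count and 4, 6, 6 and 0 counts in WT 1 to 4. A count of 0 allows up to 0.153 CPM in KO 1 and 0.219 CPM in KO 2, counting 3 counts as the limit. The Atf3 levels of 0.0966, 0.251 and 0.230 CPM in WT 1 to 3 stand at about that limit, so a difference was not detectable at this depth.

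Levels of different genes were compared per kilobase of the deposited gene length. In WT, Junb (144 CPM per kilobase ± 44.6), Jund (133 ± 13.6) and Jun (111 ± 48.1) headed the family (SD, n = 4). Their ranges over mice overlapped, but within libraries Junb was above Jun in all 4, and Jund was above both in WT 1, WT 2 and WT 3 and below both in WT 4. Fos followed at 43.9 ± 6.61, then Fosb at 9.95 ± 1.57 and Batf at 9.12 ± 0.577 CPM per kilobase, and Fosb was above Batf in 3 of the 4 WT libraries. Fosl2 was at 0.905 ± 0.524 CPM per kilobase, and the other 3 members were at or below 0.0730 CPM per kilobase. The order was different in each KO library. In KO 1, Batf came first at 79.2 CPM per kilobase, followed by Jund at 15.3, Junb at 10.8, Fos at 4.28 and Jun at 0.915. In KO 2, Jund came first at 110.6 CPM per kilobase, followed by Batf at 41.3, Junb at 32.2, Jun at 4.38 and Fos at 0.571.

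Summed over the 10 members, the level was 110.5 and 189 CPM per kilobase in KO 1 and KO 2, against 425, 438, 342 and 604 in WT 1 to 4. The 3 JUN genes made up 24.4% and 77.8% of that sum in KO 1 and KO 2, against 84.0 to 87.9% in WT. The 4 FOS genes made up 3.89% and 0.453% in KO 1 and KO 2, against 10.5 to 13.3% in WT. Batf made up 71.7% and 21.8% in KO 1 and KO 2, against 1.61 to 2.73% in WT. Without length scaling its share was 48.6% and 8.64% in KO 1 and KO 2, against 0.576 to 0.972% in WT. Within the JUN group, the level of Jund was 16.7 and 25.3 times that of Jun in KO 1 and KO 2, against 0.793 to 1.57 times in WT. The ratio of Jun to Fos was 0.214 in KO 1 and 7.68 in KO 2, against 2.02 to 3.55 in WT, so the KO libraries lay on either side of WT. The per-length values give the make-up of the RNA, not of the protein dimers.

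**Figure D2:**
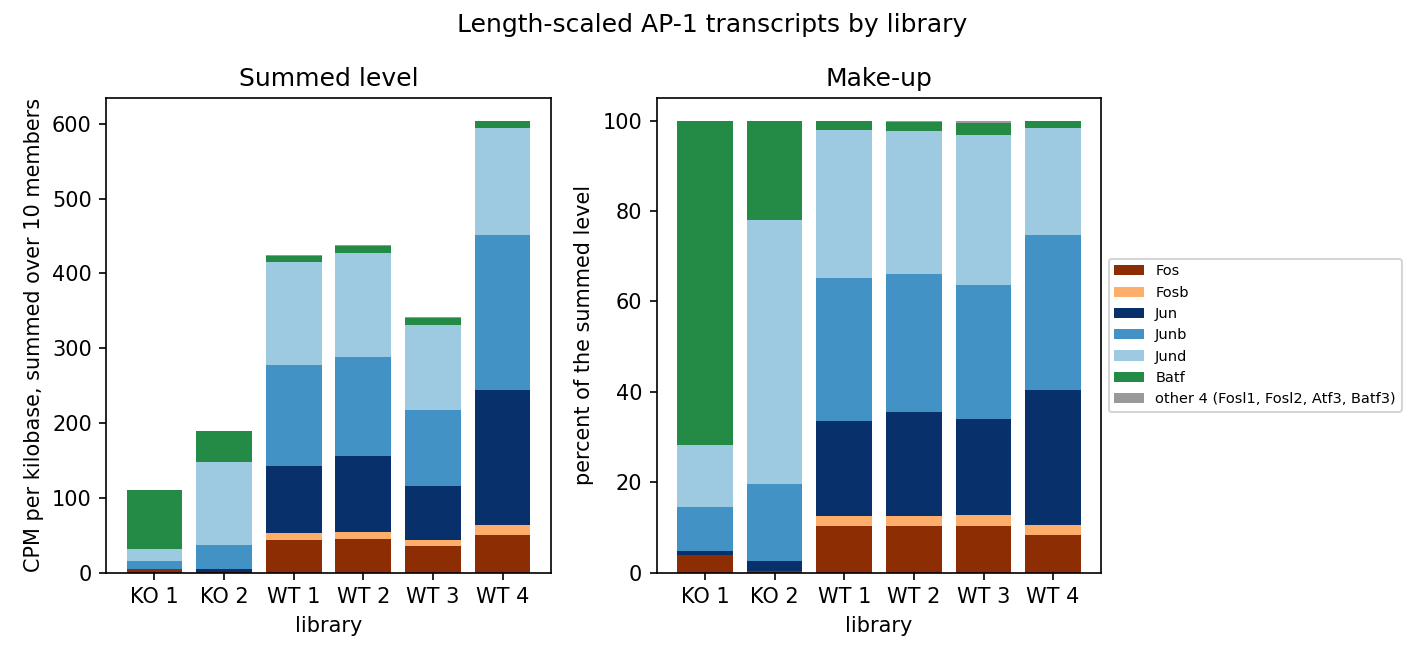
Length-scaled transcripts of the 10 AP-1 factors in each library, as the summed level in CPM per kilobase (left) and as each gene's percent of that sum (right), KO libraries first. Batf (green) makes up 71.7% of the sum in KO 1 and 21.8% in KO 2, and at most 2.73% in any WT library.

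Likeness was measured as the root mean square difference of log2(CPM + 0.5) over the 6 libraries after subtracting each gene's mean, where 1 unit is a 2-fold gap. A KO level under the 0.5 CPM added is capped by it, so pairs with Fosb, which was under it in both KO libraries, are left out. Fosl2 was under it in KO 1 alone (0.0512 CPM) and is kept, but its distances are partly set by the value added. Among the other tested members the nearest pair was Junb and Jund at 0.711, while Fos and Jun were 1.43 apart. Fos was lower in KO 2 than in KO 1, whereas Fosl2, Jun, Junb and Jund were lower in KO 1 than in KO 2. Outside the family, the genes nearest to Fos were Ncs1 (0.262), Lrp1 (0.335) and Sh2b2 (0.440). Those nearest to Jun were Ctla2a (0.375), the heat shock gene Hspa1a (0.426) and Cpne2 (0.427). Those nearest to Junb were Cpq (0.129), Alpk1 (0.136) and Slc25a24 (0.156), and those nearest to Fosl2 were ND4L (0.324), Adgrl2 (0.455) and Gja1 (0.466). Of these 12 genes, Lrp1 and ND4L alone stayed above 0.5 CPM in both KO libraries, so the likeness of the other 10 is partly set by the value added. That of ND4L is too, through the KO 1 level of Fosl2. For Jund and Batf no such cap applied. The genes nearest to Jund were Hsd11b1 (0.131), Atxn1 (0.154) and Scel (0.171), and those nearest to Batf were Sema7a (0.0725), Hdac5 (0.115) and Scamp5 (0.116). Sema7a, a semaphorin, was at 123 CPM in KO 1 and 67.5 CPM in KO 2, against at most 17.6 CPM in WT. Hspa1a and its near-identical copy Hspa1b may share or lose reads, so their values are less certain.

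Fos and Batf start 212.8 kb apart on chromosome 12, and the one gene of the table between them is Jdp2 (chromosome 12, 85598656 to 85639878), which encodes another AP-1 dimer partner that represses. Jdp2 was at 27.0 CPM in KO 1 and 17.7 CPM in KO 2, against 18.7, 17.3, 17.3 and 18.2 CPM in WT 1 to 4. KO 2 lay within the WT range, and the difference did not pass (log2 0.23, SE 0.166, adjusted p = 0.335 by edgeR's quasi-likelihood test). The 3 neighbours thus had a fall, no call and a rise, in that order along the chromosome. Batf3 and Atf3 are close on chromosome 1, with 71.9 kb between their lower coordinates and Fam71a between them, and all 3 were at or near 0.

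The KO difference of some members was not the same in the male pair (KO 1 against WT 4) and the female mice (KO 2 against WT 1 to 3). For Jund the log2(CPM + 0.5) difference was -3.21 in the male pair and -0.23 in the female mice. The edgeR interaction test, with genotype and sex both in the model, gave an adjusted p of 0.0152 for it. For Batf the differences were 2.95 and 2.15, with an adjusted p of 0.000163. Fos, Fosb, Fosl2, Jun and Junb did not pass (adjusted p = 0.0693 to 0.720), though Jun was -7.40 in the male pair and -4.26 in the female mice. The interaction was called for 54.7% of all genes tested. Each sex held 1 KO library, so sex and library cannot be told apart, and the spread in that test comes from the 3 WT females alone.

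Genes that work around AP-1 were read as lists, by their counts and their median log2 difference. Over all genes tested the median was -0.04, and 16.5% were called lower and 14.1% higher in KO, 30.7% in all. List counts near these shares do not set a list apart from other genes. In the MAP kinase cascade, which switches the immediate-early members on, 2 of 26 genes fell, 6 rose and 18 did not pass (median 0.15). Rasgrp1, which starts the ERK cascade downstream of antigen and pre-T-cell receptors, was at 544 CPM in KO 1 and 527 CPM in KO 2, against 177 to 197 CPM in WT (log2 1.53, adjusted p = 0.000319 by edgeR). Map3k1 rose 1.99-fold and Rps6ka1, a kinase of the ERK branch, 1.72-fold. Rasgrp1 and these 2 genes rose in the same libraries in which Fos, Fosb, Jun and Junb fell.

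Of the 9 factors of the serum response group, which carry the kinase signal to the Fos promoter, 1 fell, 1 rose and 7 did not pass (median -0.05). Srf was at 114 CPM in KO 1 and 126 CPM in KO 2, against 118 to 129 CPM in WT, with a log2 difference of -0.05 (SE 0.0806, adjusted p = 0.693 by edgeR). Elk3 fell 1.35-fold and Mrtfa rose 1.36-fold, while Elk1 (log2 -0.44, adjusted p = 0.0800) and Elk4 (0.09, adjusted p = 0.365) did not pass. Mef2a was at 47.0 CPM in KO 1 and 151 CPM in KO 2, against 44.2 to 57.9 CPM in WT, and Mef2c at 0.0512 CPM in KO 1 and 7.84 CPM in KO 2, against 4.35 to 5.83 CPM in WT, so the KO libraries differed widely in both. Mef2d and Mrtfb did not pass either (adjusted p = 0.221 and 0.927 by edgeR). In the list of AP-1 turnover enzymes and cofactors, edgeR called 0 of 10 genes at the adjusted threshold; 2 had an unadjusted p under 0.05, DESeq2 called 1 and limma-voom with weights per genotype 0. Fbxw7, which helps remove JUN protein, was at 56.3 CPM in KO 1 and 62.2 CPM in KO 2, against 47.3 to 53.2 CPM in WT (adjusted p = 0.0752 by edgeR).

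Feedback genes of the same signals went both ways: 5 of 16 fell, 7 rose and 4 did not pass (median 0.42). Dusp1, an immediate-early phosphatase of MAP kinases, was at 15.9 CPM in KO 1 and 15.4 CPM in KO 2, against 38.3 to 53.6 CPM in WT (log2 -1.59, adjusted p = 0.00152 by edgeR). Spry1, a restraint on ERK signalling, fell 2.78-fold. Dusp10, a phosphatase of JNK and p38, was at 90.2 CPM in KO 1 and 129 CPM in KO 2, against 23.7 to 26.4 CPM in WT (log2 2.20, adjusted p = 0.000434 by edgeR), and Spred2 rose 2.05-fold.

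Other immediate-early genes gave 5 falls, 2 rises and 8 genes that did not pass among 15 tested of 16 listed (median -0.06). Ptgs2, an inducible cyclooxygenase, had no KO count, against 7.17 to 10.4 CPM in WT. Klf4 had 0 and 5 counts in KO 1 and KO 2 (0 and 0.373 CPM), against 6.21 to 9.82 CPM in WT. Ptgs2 and Klf4 passed the filter on low counts through WT alone, so their low KO levels were let in by WT. Ier3 was at 0.409 CPM in KO 1 and 0.672 CPM in KO 2, against 1.80 to 2.80 CPM in WT. Klf10, by contrast, rose 2.17-fold to 39.6 and 45.2 CPM in KO 1 and KO 2, against 17.3 to 22.6 CPM in WT. The fall of Fos, Fosb, Jun and Junb thus did not extend to the whole immediate-early class.

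Of the heat shock genes, 6 of 11 tested fell, 1 rose and 4 did not pass (median -0.44). Hspa1b was at 5.01 CPM in KO 1 and 2.54 CPM in KO 2, against 53.0 to 217 CPM in WT, and Hspa1a at 0.307 and 1.19 CPM in KO 1 and KO 2, against 36.1 to 164 CPM in WT. Among WT libraries, WT 4 had the highest Hspa1a and Hspa1b as well as the highest Jun, Junb, Fos and Fosb. The other 4 heat shock genes that fell, Hsph1, Dnaja1, Hsp90aa1 and Hspa8, were lowest in WT 4 among WT libraries, as in Hsph1 at 159 CPM, against 209 to 221 CPM in WT 1 to 3. Over all 12 listed genes the summed level was 8218 and 6108 CPM in KO 1 and KO 2, against 7773 to 8030.5 CPM in WT. The heat shock falls and the lower mitochondrial share thus accompanied the AP-1 falls, and their part in them was not tested.

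Partners that bind with AP-1 on composite sites included 1 gene that fell, 2 that rose and 4 that did not pass (median 0.22). Irf4, which binds beside BATF and JUN proteins, was at 13.7 CPM in KO 1 and 31.9 CPM in KO 2, against 1.96, 1.84, 1.61 and 0.914 CPM in WT 1 to 4. It rose 16.6-fold (log2 4.06, SE 0.171, adjusted p = 0.000223 by edgeR). Irf8, the other factor of that kind, was at 5.32 CPM in KO 1 and 23.5 CPM in KO 2, on either side of the 11.3 to 13.9 CPM in WT, and did not pass. Nfatc1, Nfatc2 and Nfatc3 did not pass (adjusted p = 0.116, 0.816 and 0.243 by edgeR), Nfat5 fell 1.95-fold and Ets1 rose 1.62-fold.

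Among 22 related basic leucine zipper genes tested of 23 listed, 5 fell, 5 rose and 12 did not pass (median -0.01). Maf, a factor of type 17 and γδ T cells, was at 82.0 CPM in KO 1 and 122 CPM in KO 2, against 6.85 to 11.7 CPM in WT (log2 3.57, adjusted p = 0.000113 by edgeR). Nfil3, a factor of innate lymphoid development, was at 8.09 CPM in KO 1 and 7.02 CPM in KO 2, against 0.869 to 1.50 CPM in WT. Nfe2 fell 9.85-fold and Mafk, a small MAF partner, 1.68-fold. Members of this wider class thus moved in both directions, as did all genes tested, of which 16.5% were called lower and 14.1% higher.

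Of 20 genes known as AP-1 targets in T cells or fibroblasts, 13 were tested: 3 fell, 4 rose and 6 did not pass (median 0.58). Vim, the intermediate filament vimentin, was at 356 CPM in KO 1 and 263 CPM in KO 2, against 44.5 to 49.0 CPM in WT (log2 2.65, adjusted p = 0.000162 by edgeR). Ezr, a linker of membrane and cytoskeleton, rose 1.61-fold. Gzmb, a granzyme of killer cells, was at 2.20 CPM in KO 1 and 26.0 CPM in KO 2, against 0 to 0.410 CPM in WT. Il2ra, whose protein CD25 was used for the sort, fell to 1131 and 708 CPM in KO 1 and KO 2, against 1751 to 2119 CPM in WT. Il2, the classic target of NFAT with AP-1, was not tested, with 1 KO count and 2 WT counts in all.

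**Figure D3:**
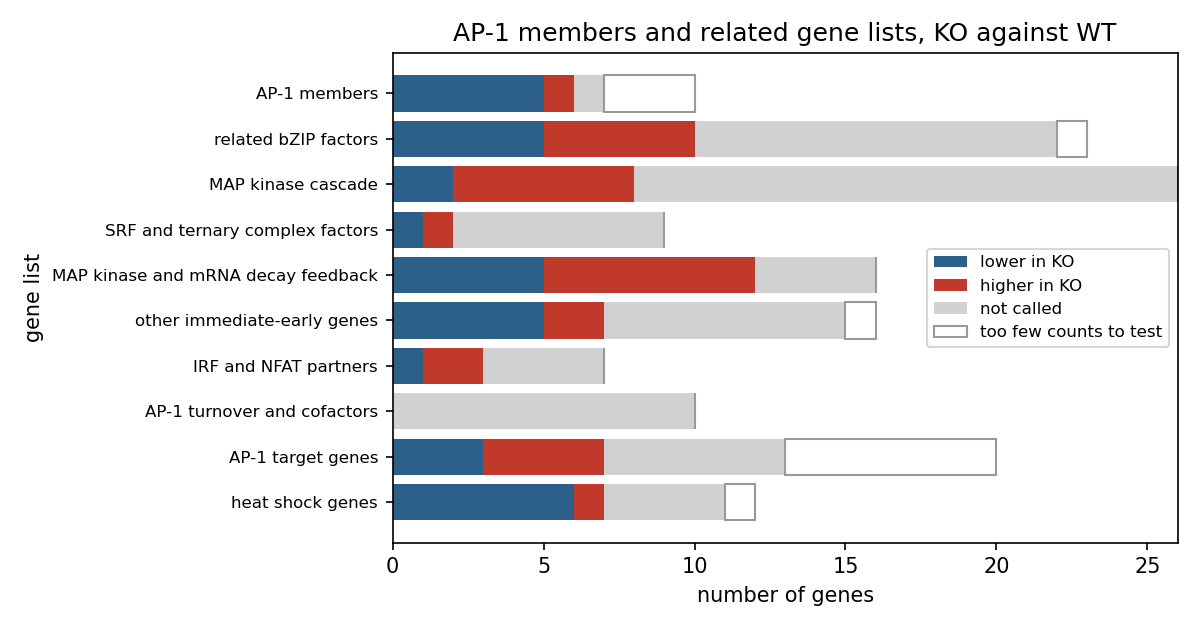
Number of genes in each list that were called lower (blue) or higher (red) in KO than in WT at an adjusted p under 0.05, were not called (grey) or had too few counts to test (white). The AP-1 factors have 5 lower and 1 higher of 7 tested, the MAP kinase cascade 2 lower and 6 higher of 26, and the turnover list has no call.

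The members differed in how far their calls depended on the fit. Fosb and Batf kept an adjusted p under 0.05 in all 16 alternative fits. Fos and Jun kept it in 14 of 16, all 6 fits without 1 library among them. These fits are not independent: leaving out KO 1 or WT 4 leaves 1 male, so that both come down to KO 2 against the WT females, as does the fit to the female libraries. For Jun these 3 fits gave log2 fold changes of -4.30, -4.32 and -4.30. With weights fitted for each genotype in limma-voom, Fosb (adjusted p = 0.0231) and Batf (2.63e-06) were called. Under that test Fos (0.265), Jun (0.240), Junb (0.193) and Fosl2 (0.788) were not called; it called 3.86% of all genes lower and 7.42% higher. The sign of each member's difference was the same in all 16 fits. The 2 KO mice limit the precision of every value here.

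**Figure D4:**
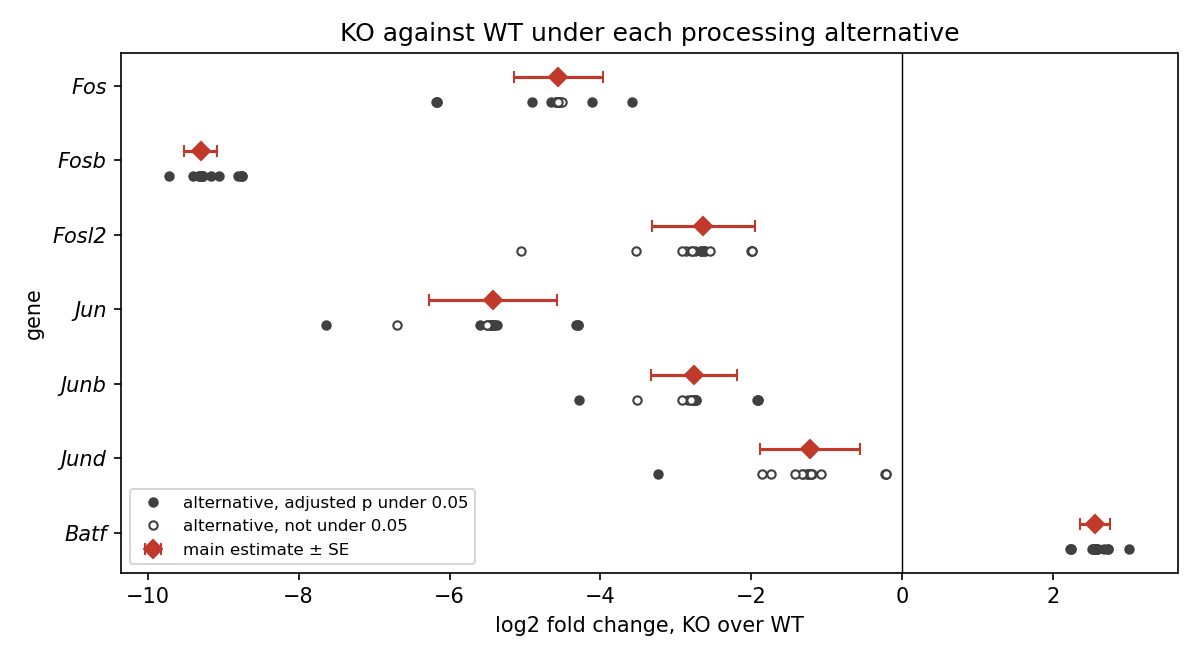
Log2 fold change of KO over WT for the 7 members tested, with the main edgeR estimate and its standard error (red diamonds) above the values of 16 alternative fits (filled circles, adjusted p under 0.05; open circles, not). Fosb and Batf have filled circles throughout, Jund has 1, and none of the circles crosses 0.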

How the data were processed

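The authors deposited raw read counts for each Entrez gene. The submitters' processing notes name featureCounts and mm10; no aligner, version or strand setting is given in the sources used here. RNA was amplified with a SMART-Seq v4 kit and sequenced as paired ends, per the labels' protocols; such a kit keeps no strand information. The table also gives gene lengths, which served to scale levels per kilobase. Counts in the 6 single-library tables were identical to those of the series table. Symbols and coordinates came from RefSeq on GRCm38.p6, the assembly of mm10 (25275 of 26332 identifiers matched).

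Genes were kept by filterByExpr (minimum count 10), which left 13294. Libraries were scaled by TMM, and edgeR 4.0.16 in R 4.3.3 tested KO against WT by its quasi-likelihood F-test with sex as an additive term (3 residual degrees of freedom), with Benjamini-Hochberg adjustment. A second fit added the interaction of genotype and sex. The SE is the log2 change divided by the square root of F. The code was tested on simulated data with 200 genes changed. DESeq2 1.42.0 and limma 3.58.1 were alternatives. Exact intervals are 95% and cover counting error only, since amplified reads are not independent molecules.

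The 10 members, the 16 other gene lists and the tests were chosen with earlier results of these data known. Genes that could be named were all members, up to 4 genes with the smallest p from each list, and all genes of the serum response and IRF/NFAT lists. The 3 nearest profiles per member at 5 CPM or more could also be named. Those of Fosb are left out because its level lies below the value added in both KO libraries. Jdp2, Ms4a1, Pax5, Ebf1, Klrd1, Klrk1, Il1rl1, Ncr1, Klrb1c and Eomes were named after their values were seen or for their place in the genome. So were Rag1, Rag2, Cd79b, Hsp90aa1, Hspa8, Fam71a, Ccdc85b and Il2. One gene of the MAP kinase list that the rule would name is not reported here. The design text states that each library came from an individual mouse. Replicate numbers thus do not mark shared animals, and whether they mark batches could not be told from these data. The myeloid, dendritic, innate lymphoid, erythroid and stromal marker lists summed to 5.48, 219, 1588, 5.22 and 190.5 CPM in KO 1 and to 10.2, 217, 1589, 33.6 and 188 CPM in KO 2. In WT they summed to 17.5 to 19.9, 235 to 251, 319 to 383, 4.08 to 14.8 and 257 to 275 CPM.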

Additional observations from a re-analysis of the deposited data

Results flagged for a closer look

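Fosb in WT 4 (46.4 CPM) stood apart from the other 3 WT libraries (33.5 to 35.3 CPM): its gap to the nearest was 0.858 of the group's range, above Dixon's critical value for 4 samples. Jund in WT 3 (325 CPM) stood below the other 3 WT libraries (398 to 412 CPM), with a gap of 0.838 of the range. Chance flags about 1 in 20 such groups, and 7 members were looked at. Neither library moved a call of these genes when left out: Fosb stayed called without WT 4, and Jund was not called without WT 3 (adjusted p = 0.262 by edgeR).

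The KO difference of Jund differed between the sexes by -2.995 on the log2 scale, male minus female (SE 0.315, edgeR interaction adjusted p = 0.0152): 44.0 CPM in KO 1 against 412 CPM in WT 4, and 318 CPM in KO 2 against 325 to 398 CPM in WT 1 to 3. For Batf the differences were 0.80 apart (SE 0.171, adjusted p = 0.000163), with 71.6 CPM in KO 1 against 8.82 CPM in WT 4, and 37.3 CPM in KO 2 against 7.58 to 8.43 CPM in WT 1 to 3. The same test called 7274 of 13294 genes, and each sex held 1 KO mouse.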

How the results depend on the processing

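The number of genes called in KO against WT was 4076, with 5 AP-1 members lower and 1 higher. The scaling, filter, DESeq2 and no-sex-term alternatives gave 3828 to 5261 genes, 4 or 5 members lower and 1 higher. With weights per genotype, 1500 genes were called, with 1 member lower (Fosb) and 1 higher; the cause was not tested. Leaving out 1 library gave 1665 genes (without WT 1) to 9473 (without KO 2), with 3 to 5 members lower and 1 higher in each; without WT 2 or WT 3 it gave 1714 and 1743, without WT 4 8279 and without KO 1 8536. Without KO 1 or WT 4 the single male carries no weight, so those fits repeat the female comparison. A lone KO library is assumed to vary like WT. The female libraries alone gave 8524 genes. Log2 changes without 1 library ranged from -6.18 to -3.58 for Fos, -9.71 to -8.76 for Fosb, -7.63 to -4.30 for Jun, -4.28 to -1.92 for Junb and 2.22 to 3.01 for Batf.

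With the replicate number as a block in place of sex, 748 genes were called, 2 members lower (Fosb and Junb) and 1 higher; 1 residual degree of freedom was left. The correlation of deviations from group means was -0.14 for number 1 and 0.03 for number 2. The deviations of the 2 KO libraries are the same gap with opposite sign. These values therefore cannot decide whether a shared number marks a batch. The interaction gave 7274 genes, and 5048 to 7489 under its 3 alternatives. Without length scaling Batf made up 48.6% and 8.64% of the summed counts of the 10 members in KO 1 and KO 2, against 0.576 to 0.972% in WT. The KO depth limits Atf3, Batf3 and Fosl1.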
